A study of Mus musculus with 6 samples.

Results

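The LINGO family comprises 4 mouse genes, Lingo1, Lingo2, Lingo3 and Lingo4, which encode single-pass membrane proteins with leucine-rich repeats and an immunoglobulin domain outside the cell. All probes that the array files name for these genes were taken, 5 of 41174 probes that were not controls, with 2 probes for Lingo2 and 1 for each of the others. The family is described because Lingo4 differed strongly between the groups in these same livers. The difference between groups is therefore given for the members as a description, with no test.

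Livers of 6 male BALB/c mice were measured, 1 single-colour Agilent array per mouse. In the MC-LR group, 3 mice drank water with microcystin-LR at 100 µg/L for 12 months from 6 weeks of age. In the control group, 3 mice of the same age drank normal sterile water for the same time. MC-LR is a cyanobacterial toxin that hepatocytes take up and that inhibits protein phosphatases 1 and 2A, and the comparison asks which liver transcripts differ after long exposure. Slide 1 held controls 1 and 2 and slide 2 held the other 4 arrays, so control 3 alone shares a slide with MC-LR arrays. Differences given below with slide as a block (a fixed block) are therefore the MC-LR mean minus control 3 alone. They rest on 1 control mouse. Between 64.9% and 73.7% of spots lay well above background per array, and 0 were saturated. All 6 hepatocyte markers listed, Alb, Apoa1, Ttr, Cps1, Hnf4a and Tat, were well above background on all 6 arrays. The number of arrays limits the precision.

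LINGO1, the best studied member, joins the Nogo-66 receptor and either the p75 neurotrophin receptor (Ngfr) or TROY (Tnfrsf19) in a complex that receives myelin inhibitors and activates RhoA, restraining axon growth. It also restrains the maturation of oligodendrocytes, the myelin-forming cells of the central nervous system. The family is known mainly from the nervous system, not from liver.

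Each probe is a 60-base oligonucleotide, and its first 30 bases are shown because the 5 probes define what each family value measures. Positions are in mm9, per the file headers, and which exon each probe lies in was not analysed here. The Lingo4 probe lies on the plus strand at chr3:94208322-94208381. The other probes lie on the minus strand, at chr9:56467301-56467360 for Lingo1, at chr4:35655116-35655175 and chr4:36663984-36664043 for Lingo2, and at chr10:80295824-80295883 for Lingo3. The 2 Lingo2 probes are 1.01 Mb apart, and the files assign them to different transcripts.
Lingo1 probe A_51_P104802: agcacaacatcgaaattgagtatgtgcccc
Lingo2 probe A_51_P110289: gcattctggggatctcagcaatgaacctga
Lingo2 probe A_51_P380916: ctgccttcaagttttaggttttatgatcta
Lingo3 probe A_51_P436491: gactttcccatcacatacaaactgattgac
Lingo4 probe A_51_P173692: attcctacacagaactctcctatttcacat

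The full Lingo4 probe holds 45.0% G and C, against a median of 40.0% over all 41174 probes. No other probe on the array shared a run of 16 bases, on either strand, with the Lingo4, Lingo1 or Lingo3 probe. Each Lingo2 probe shared such a run with 1 other probe, of Speer3 for A_51_P110289 and of Nlrc3 for A_51_P380916.

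Lingo4 was the one member with a clear signal on every array, and its signal was several times higher in the livers of exposed mice. The processed signal, which is spot intensity after the scanner software's background fit, was 492, 518 and 472 in the 3 MC-LR livers, against 55.9, 64.3 and 89.8 in the 3 control livers. The scanner software's own error for these spots was 47.2 to 51.8 in the MC-LR livers and 6.21 to 9.23 in the controls. After quantile normalization the log2 signal was 8.94, 8.84 and 8.87 in the MC-LR livers and 5.97, 6.28 and 6.19 in the controls. The groups did not overlap, and the 3 MC-LR livers lay closer to each other than the 3 controls did.

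The means were 8.88 ± 0.05 in the MC-LR livers and 6.15 ± 0.16 in the controls (log2, SD, n = 3 each), a difference of 2.74 ± 0.11 (SE from limma), or 6.66-fold. The control values stood clear of the detection limit: the lowest normalized log2 signal among probes well above background was 2.76 to 3.94 across the arrays. Against control 3, the control on the slide of the MC-LR arrays, the difference was 2.69, or 6.48-fold, and control 3 lay 0.06 above controls 1 and 2 on average. The authors' deposited log2 values for the probe gave 8.88 ± 0.05 in the MC-LR livers and 6.15 ± 0.16 in the controls (SD, n = 3 each). In liver tissue, more cells that express Lingo4 and more Lingo4 RNA per cell cannot be told apart.

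**Figure D1:**
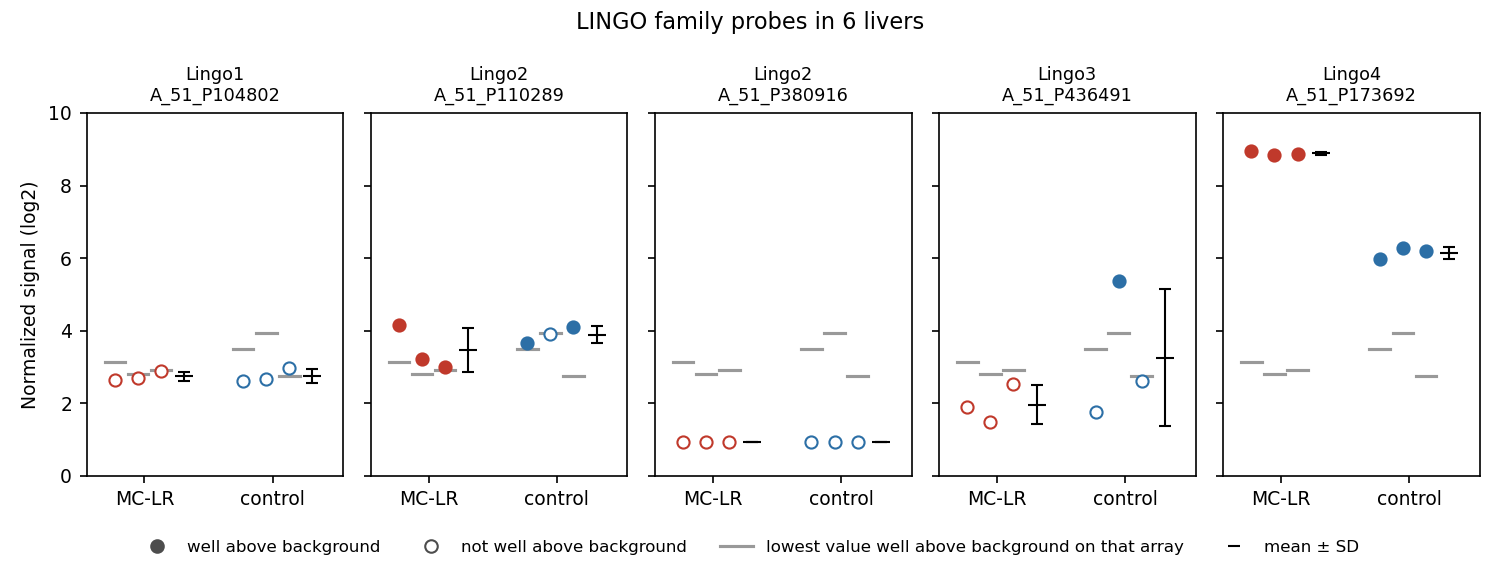
Normalized log2 signal (y axis) of the 5 LINGO probes in the 3 MC-LR and 3 control livers, 1 point per array in replicate order. Filled points were well above background, grey bars mark the lowest value well above background on that array, and black marks show the mean ± SD. Lingo4 is apart between groups at 8.84 to 8.94 in the MC-LR livers and 5.97 to 6.28 in the controls, and most values of the other probes lie near or under the grey bars.

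Of the 4 genes, 2 had a probe that passed the filter on dim probes (a signal well above background throughout the 3 arrays of either group), namely Lingo4 and Lingo2. In the limma fit over all 18897 genes, 0.0159% were higher and 0% lower at an adjusted p threshold of 0.05. No call is given for the members, since the family was chosen on this contrast. Every MC-LR array lay above every control array for Lingo4, as it did for 11.3% of all genes tested. By the size of its difference Lingo4 was 14th among the genes that were higher in the MC-LR livers. Of those 14 genes, 6 were well above background on all 6 arrays, and 1 had a smaller pooled SD than Lingo4 (0.12 on the log2 scale). The SE of the 14 ranged from 0.10 to 1.12, and the median SE over all genes was 0.16.

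**Figure D2:**
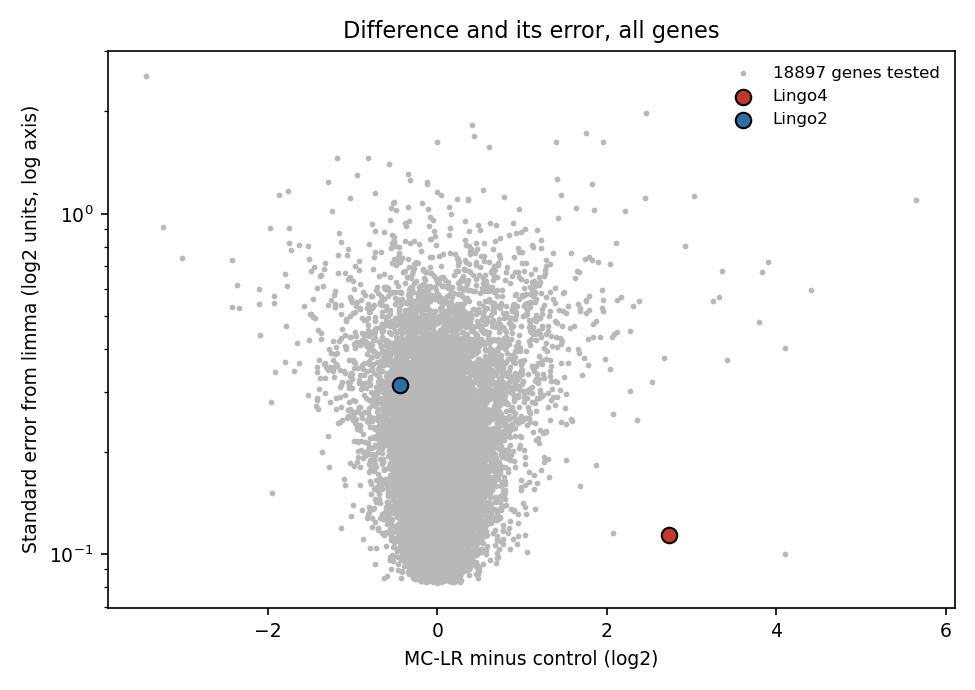
Difference between MC-LR and control livers (x axis, log2) against its limma standard error (y axis, log2 units on a log axis) for the 18897 genes tested, with Lingo4 and Lingo2 marked. Lingo4 combines a difference of 2.74 with an SE of 0.11, while Lingo2 lies inside the cloud at -0.44 with an SE of 0.31.

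Lingo2, a paralogue of LINGO1, gave a weak signal that overlapped between the groups. Probe A_51_P110289 was well above background on 3 of 3 MC-LR arrays and 2 of 3 control arrays, so it passed the filter through the MC-LR group. Its processed signal was 17.6, 10.4 and 8.13 in the MC-LR livers and 11.4, 12.8 and 21.1 in the controls. On the normalized log2 scale these were 4.14, 3.22 and 3.01 in the MC-LR livers and 3.66, 3.90 and 4.11 in the controls.

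In the processed signal of Lingo2 control 3 was highest, at 21.1 against 17.6 in MC-LR 1. On the normalized scale the highest Lingo2 value belonged to MC-LR 1 and the lowest to MC-LR 3, so there the exposed livers enclosed all 3 controls. The means were 3.46 ± 0.60 in the MC-LR livers and 3.89 ± 0.22 in the controls (SD, n = 3 each), a difference of -0.44 ± 0.31 (SE). Without MC-LR 1 the difference was -0.78, without MC-LR 3 it was -0.21, and against control 3 alone it was -0.66. The second Lingo2 probe, A_51_P380916, was well above background on 0 of 6 arrays, and its processed signal on all 6 arrays was the surrogate value that the software sets for dim spots.

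Lingo1, the co-receptor of the Nogo complex, was well above background on 0 of 6 arrays. Its processed signal was 6.08, 7.36 and 7.49 in the MC-LR livers and 5.48, 5.10 and 9.41 in the controls. The normalized log2 signal was 2.74 ± 0.13 in the MC-LR livers and 2.75 ± 0.19 in the controls (SD, n = 3 each). The 2 ranges overlapped, and no fold is given because neither group was measured above background.

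Lingo3, the remaining paralogue, was well above background on 1 array only, that of control 2. Its processed signal was 3.33, 2.68 and 6.06 in the MC-LR livers and 2.98, 34.6 and 7.48 in the controls. Control 2 stood apart from the other 5 livers.

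The raw mean signal of the Lingo3 spot was 90.5 in control 2, over a local background median of 38.0, and 50.0 to 57.5 on the other 5 arrays. The software did not locate that spot at its nominal position in control 2, nor in MC-LR 3, and set no outlier flag on it. The normalized log2 difference of Lingo3 was -1.29 with control 2 and -0.23 without it, so 1 spot decides its size. At this signal, Lingo1 was not detectable in either group, nor was Lingo3 on the arrays other than that of control 2.

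The upstream sequence of Lingo4 is shown because Lingo4 is the member whose level differed. It is the run of 250 bases before the annotated start in RefSeq (GRCm38.p6, plus strand, chr3:94398969-94399218).
Lingo4 upstream: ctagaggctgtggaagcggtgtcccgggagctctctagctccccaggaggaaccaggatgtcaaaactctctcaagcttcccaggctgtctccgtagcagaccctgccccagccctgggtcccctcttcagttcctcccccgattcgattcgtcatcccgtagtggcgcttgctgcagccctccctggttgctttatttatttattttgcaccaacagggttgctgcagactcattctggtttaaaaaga

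Motifs of clock-related factors were searched on both strands, namely the E-box CACGTG, the half-site AGGTCA of nuclear receptors, and the D-box TTATGTAA. None of these letters was in the Lingo4 window, so nothing in it is in capitals. Over the 32851 upstream windows of this length in the RefSeq table, 6.02% held CACGTG, 14.02% AGGTCA and 0.819% TTATGTAA. The 2 windows each of Lingo1 and Lingo2 held none of these motifs, and 1 of the 2 of Lingo3 held CACGTG. None of the motifs contains another, and a missing match says only that the letters are not in this window.

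Genes beside Lingo4 on chromosome 3 were compared next, since they played no part in choosing the family. Within 200 kb of the Lingo4 probe lay probes of 13 other genes, of which 10 passed the filter. In the limma fit 0 of these 10 passed the adjusted threshold and 4 had an unadjusted p under 0.05, against 12.9% of all genes. Their median log2 difference was 0.29, against -0.01 over all genes, with 8 above 0 and 2 below. Of the 8, Them5, Celf3, Oaz3 and an unnamed transcript 30.2 kb away passed the filter through the MC-LR group alone. The filter bears on their direction, and that transcript is also among those with an unadjusted p under 0.05. In 5 of the 10 the groups did not overlap, as in 20.5% of all genes tested.

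Them4, an acyl-CoA thioesterase gene 72.6 kb away, stood at 10.49 ± 0.16 in the MC-LR livers and 9.99 ± 0.26 in the controls (log2, SD, n = 3 each; adjusted p = 0.320, limma). Mrpl9, a mitochondrial ribosomal protein gene 42.3 kb away, stood at 8.93 ± 0.05 in the MC-LR livers and 8.60 ± 0.08 in the controls (adjusted p = 0.291, limma). A transcript with no gene symbol, 30.2 kb away, differed by 0.59 ± 0.11 (SE, adjusted p = 0.211, limma). It was well above background on 2 of 3 control arrays. These 3 had no overlap between the groups at the probe that represented each. A second Them4 probe, well above background on 3 of 3 arrays of each group, did overlap. It differed by 0.27, at 6.63 to 6.94 in the MC-LR livers and 6.22 to 6.84 in the controls.

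Snx27, a sorting nexin gene of endosomal recycling, differed by -0.20 ± 0.09 (SE), with its 3 MC-LR livers below the 3 controls. Its 4 other probes that passed gave differences of -0.20 to -0.12. Them5, Tdrkh, Oaz3, Celf3 and a second unnamed transcript overlapped between the groups, with differences of -0.12 to 0.36. With slide as a block the differences were 1.06 for Them5, 0.42 for Oaz3, 0.25 for Tdrkh, 0.16 for Celf3 and -0.28 for that transcript. Of the 3 controls, 1 was well above background for Them5, 1 for Celf3 and 2 for Oaz3. Them5 in control 3 stood at 2.69, under that array's lowest value well above background of 2.76. The 3 remaining genes, Riiad1, 1700040D17Rik and an unnamed transcript, were well above background on 0 of 6 arrays.

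**Figure D3:**
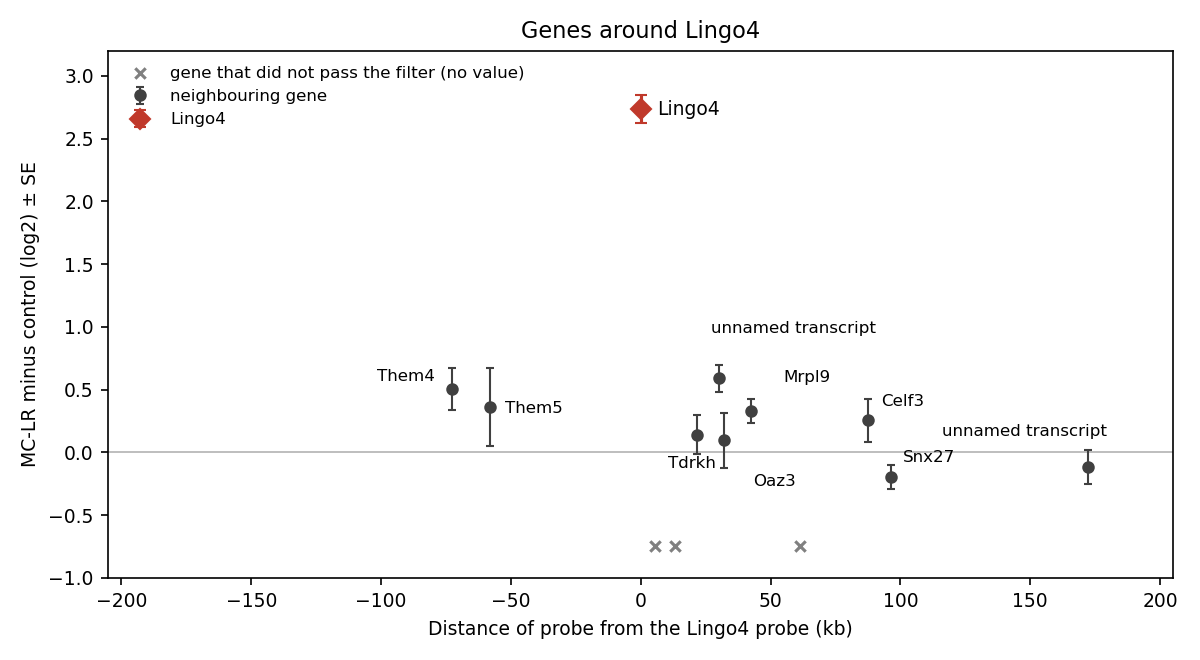
Log2 difference between MC-LR and control livers ± SE (y axis) of genes described here whose probes lie within 200 kb of the Lingo4 probe, by distance in kb (x axis), with Lingo4 at 0 and crosses for 3 genes without a value. Lingo4 stands at 2.74, and the neighbours shown lie between -0.20 and 0.59.

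No neighbour of Lingo3 passed either. Within 200 kb of Lingo3 on chromosome 10, 20 of 22 genes were tested, 0 passed the adjusted threshold by limma and 1, Btbd2, had an unadjusted p under 0.05 (difference 0.27 ± 0.10, SE, adjusted p = 0.348). The Lingo3 neighbour with the next smallest p was Amh, the gene of anti-Müllerian hormone, at 0.41 ± 0.19 (SE), and at 0.80 ± 0.14 with slide as a block. No other gene had a probe within 200 kb of the Lingo2 probes.

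Genes of the pathway in which LINGO1 acts were then described, from a list of 22 ligands, receptors, co-receptors, effectors and binding partners. All 22 were on the array and 20 passed the filter. In the limma fit 0 were higher and 0 lower at the adjusted threshold, and 3 of 20 had an unadjusted p under 0.05, near the 12.9% of all genes. The median log2 difference was -0.11, with 7 genes above 0 and 13 below, beside a median of -0.01 over all genes.

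The ligands of the Nogo receptor gave small differences. Rtn4, which encodes Nogo, differed by -0.21 ± 0.39, Mag (myelin-associated glycoprotein) by -0.08 ± 0.10 and Omg (oligodendrocyte myelin glycoprotein) by 0.08 ± 0.14 (SE each). The groups overlapped for all 3, and with slide as a block the values were -0.49, 0.06 and -0.11.

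Among the receptors, Rtn4r, the Nogo-66 receptor itself, stood at 3.50, 3.79 and 5.32 in the MC-LR livers and 2.58, 1.18 and 3.60 in the controls. It was well above background on 3 of 3 MC-LR arrays and 1 of 3 control arrays, and MC-LR 1 lay below control 3. The difference was 1.75 ± 0.74 (SE, adjusted p = 0.396, limma), and 0.60 ± 0.88 with slide as a block.

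Rtn4rl2, a receptor homologue, stood at 6.12 ± 0.26 in the MC-LR livers and 5.58 ± 0.17 in the controls (SD, n = 3 each; adjusted p = 0.306, limma), with no overlap. Its difference was 0.54 ± 0.17 (SE), and 0.36 ± 0.22 with slide as a block. Rtn4rl1, another homologue, differed by -0.19 ± 0.16 (SE), and by 0.02 with slide as a block. Pirb, a leukocyte receptor that also binds Nogo in mice, differed by -0.36 ± 0.29 (SE), and by -1.02 ± 0.14 (SE, adjusted p = 0.123, limma) with slide as a block; control 3 was the highest of the 6 at 13.49.

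The 2 co-receptors that can accompany LINGO1 lay in opposite directions. Ngfr, the p75 neurotrophin receptor, stood at 8.60, 8.04 and 7.62 in the MC-LR livers and 9.39, 8.98 and 8.81 in the controls. Tnfrsf19, which encodes TROY, stood at 9.89, 9.85 and 8.86 in the MC-LR livers and 8.20, 8.79 and 8.80 in the controls. Neither gene overlapped between the groups, although MC-LR 3 lay close to controls 2 and 3 for Tnfrsf19. The differences were -0.97 ± 0.28 for Ngfr (SE, adjusted p = 0.295, limma) and 0.94 ± 0.33 for Tnfrsf19 (SE, adjusted p = 0.344, limma). With slide as a block they were -0.72 ± 0.40 and 0.73 ± 0.49 (SE).

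Of the 9 effectors and regulators listed, 8 passed the filter, with differences of -0.22 to 0.26. Rhoa, the small GTPase downstream of the complex, differed by -0.22 ± 0.10 (SE), and its kinases Rock1 and Rock2 by -0.17 ± 0.11 and 0.26 ± 0.14 (SE). With slide as a block Rock1 and Rock2 differed by -0.34 and 0.04. The groups did not overlap for Rhoa, Rock1 and the actin-severing factor Cfl1, each lower in the MC-LR livers on every array, as in 9.23% of all genes. Crmp1 did not pass. Of the 4 reported partners of LINGO1, Egfr, App and Ntrk2 differed by -0.10, -0.32 and 0.47. With slide as a block, thus against control 3 alone, they differed by 0.76, -0.32 and -0.35. The directions of Egfr and Ntrk2 therefore depend on which controls are used. App did not overlap between the groups and was lower in the MC-LR livers on every array. Of the 20 pathway genes tested, 5 were lower and 2 higher with no overlap, against 9.23% and 11.3% of all genes. Kcnma1 was well above background on 0 of 6 arrays.

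**Figure D4:**
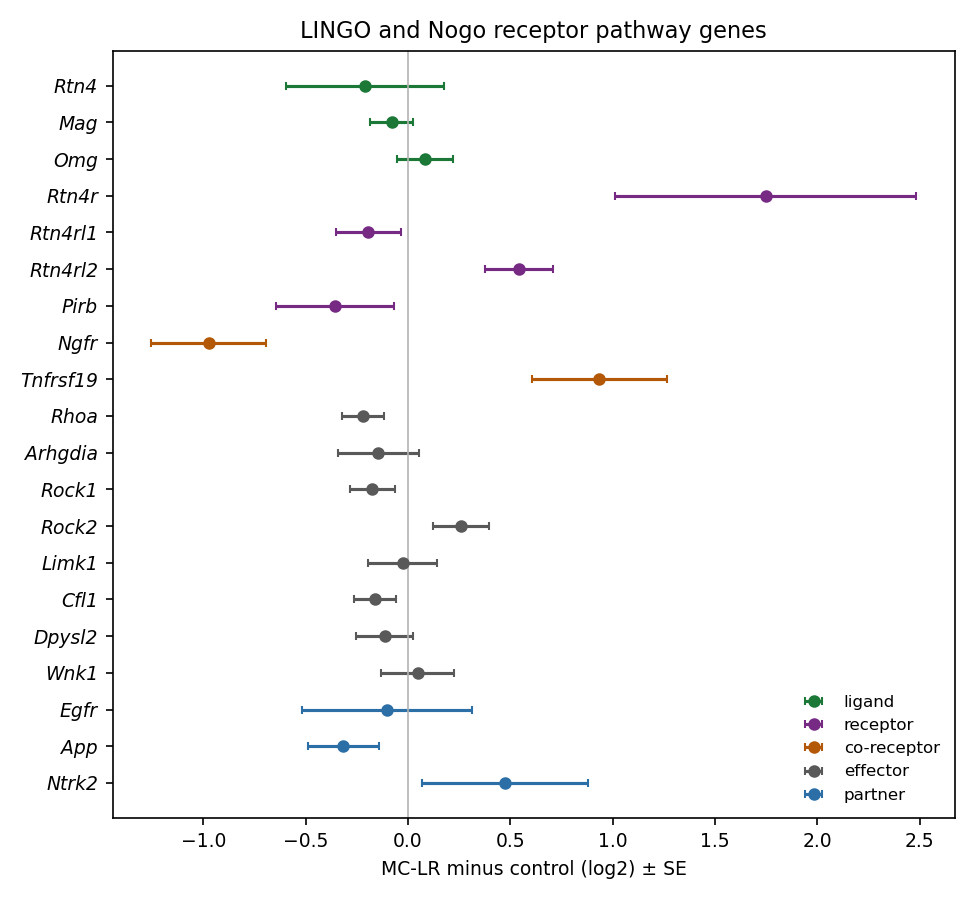
Log2 difference between MC-LR and control livers (x axis, ± SE from limma) for the 20 genes of the LINGO and Nogo receptor pathway that passed the filter, coloured by role. All effectors shown lie within 0.3 of 0, while Ngfr (-0.97) and Tnfrsf19 (0.94) lie on opposite sides and Rtn4r (1.75) has the widest error.

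Other membrane proteins with leucine-rich repeats and immunoglobulin domains gave no call. Of 26 such genes listed, 25 were on the array and 17 passed the filter. By limma 0 passed the adjusted threshold and 7 had an unadjusted p under 0.05, against 12.9% of all genes. The median difference was 0.05, with 9 above 0 and 8 below. With slide as a fixed block 4 had an unadjusted p under 0.05, as had 3041 of all 18897 genes. Amigo2, an adhesion protein gene, stood at 6.93 ± 0.12 in the MC-LR livers and 6.30 ± 0.21 in the controls (log2, SD, n = 3 each; adjusted p = 0.243, limma). Lrig1, a negative regulator of ERBB receptors, stood at 11.25 ± 0.07 in the MC-LR livers and 11.60 ± 0.08 in the controls (adjusted p = 0.278, limma). Lrrn2, a neuronal leucine-rich repeat gene, stood at 3.40 ± 0.09 in the MC-LR livers and 3.84 ± 0.09 in the controls (adjusted p = 0.259, limma), close to the detection limit. Differences over the 17 genes ran from -1.25 to 0.75.

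The genes whose level followed Lingo4 most closely over the 6 livers were found by Pearson correlation. Of 18895 other genes, 195 had r above 0.95 and 137 below -0.95. The samples fall into 2 groups on Lingo4, so r mostly follows the difference between groups, and it is given with no test. The highest r belonged to Eaf2, a transcription elongation cofactor gene, at 0.999, with a log2 difference of 0.26. Next came Cst10, a cystatin, at 0.997, which was well above background on 0 of 3 control arrays.

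Tnks1bp1, a tankyrase-binding protein gene, had an r of 0.995 and a log2 difference of 0.70. Habp2, a serine protease gene expressed in liver, had an r of 0.994 and a difference of 0.48. Esrra, a nuclear receptor gene of mitochondrial metabolism, had an r of 0.992 and a difference of 0.72. Nudt6, Mrpl17 and Cyp2a22 followed with r of 0.992, 0.992 and 0.990 and differences of 0.50, 0.20 and 1.03. The lowest r belonged to Fnbp1l (-0.995), Dctn4 (-0.992) and Esf1 (-0.992), with differences of -0.59, -0.17 and -0.19. These genes other than Cst10 differed by less than Lingo4 did.

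A list of circadian clock genes, chosen with earlier results of these livers known, was set beside Lingo4 and is no independent evidence. Of 19 clock genes, 0 passed the adjusted threshold by limma and 13 had an unadjusted p under 0.05, against 12.9% of all genes, with a median difference of 1.07, 15 above 0 and 4 below. With slide as a fixed block 6 of the 19 had an unadjusted p under 0.05, as had 3041 of all 18897 genes. With a strict filter, well above background on all 6 arrays, 10 clock genes had such a p, as had 2233 of 17299 genes. Hlf, a transcription factor gene of clock output, stood at 11.38 ± 0.09 in the MC-LR livers and 10.39 ± 0.27 in the controls (log2, SD, n = 3 each). Cry2, a clock repressor gene, stood at 9.29 ± 0.24 in the MC-LR livers and 8.09 ± 0.34 in the controls. Bhlhe41, a repressor gene whose probe was well above background in 1 of 3 controls, differed by 1.98 ± 0.38 (SE). The tissue collection times of the mice are not given in the sources used here, and their part in these differences was not tested.

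Markers of cells that could carry LINGO proteins were measured too. Of 6 neuronal markers 3 passed the filter, with differences of -0.22 to 0.47 (Syt1, whose groups did not overlap), and of 6 markers of oligodendrocytes and Schwann cells 4 passed, with differences of -0.36 to 0.20. The summed signal of the neuronal markers was 2903 to 3652 in the MC-LR livers and 1915 to 2940 in the controls. Syt1 alone made up 84.7% to 91.7% of this sum, so it stands for 1 gene rather than the list, and Syt1 differed by 0.47 ± 0.20 (SE), or 0.87 ± 0.18 with slide as a block. The oligodendrocyte and Schwann cell markers summed to 501 to 690 in the MC-LR livers and 591 to 853 in the controls, of which Mbp made up 65.8% to 86.3%. The oligodendrocyte factor Olig2 was well above background on 0 of 6 arrays. Of the T and innate lymphoid cell markers, 5 of 6 passed with differences of -0.42 to 0.19, and Il23r was well above background on 0 of 6 arrays. Their summed signal was 436 to 653 in the MC-LR livers and 428 to 826 in the controls.

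Of all 44 markers, 38 passed the filter, 0 passed the adjusted threshold by limma, and 4 had an unadjusted p under 0.05, against 12.9% of all genes. The smallest p belonged to the endothelial gene Pecam1 (-0.54 ± 0.10, SE), the cholangiocyte gene Sox9 (-0.73 ± 0.18) and the endothelial gene Cdh5 (-0.44 ± 0.14). The remaining one of these 4, the stellate cell gene Lrat, was higher at 0.95 ± 0.33 (SE), and at 0.20 with slide as a block. All 5 endothelial and all 5 Kupffer cell markers lay below 0, with medians of -0.44 and -0.24. With slide as a block, thus against control 3 alone, the endothelial genes Stab2, Kdr and Clec4g stood at 0.02, 0.13 and 0.03. Pecam1 and Cdh5 stayed lower there, at -0.58 and -0.54. The Kupffer cell genes Adgre1, Marco, Cd5l, Vsig4 and Clec4f stood at -1.60, -1.96, -0.77, -0.54 and -0.17 in that setting. Clec4g made up 70.4% to 76.7% of the summed endothelial signal and Cd5l 55.9% to 66.5% of the Kupffer cell signal. Their summed signals overlapped between the groups, at 17053 to 22554 in the MC-LR livers and 18986 to 30703 in the controls for endothelial cells, and at 26145 to 43087 in the MC-LR livers and 36034 to 59645 in the controls for Kupffer cells. The part of cell composition in the Lingo4 difference was not tested.

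The Lingo4 difference was recomputed with other ways of processing the same arrays. It lay between 2.65 and 2.80 in 18 alternatives, among them scaling by the 75th percentile, slide as a block and each array left out. Changes of filter, probe summary, replicate block or eBayes setting left it at 2.74 by construction, with a single Lingo4 probe and equal groups. Slide as a fixed block and slide 2 alone gave the same 2.69, the difference against control 3 given above. Normexp background correction with an added offset of 50 lowers the fold of dim probes by construction. With it the Lingo4 difference was 1.76 ± 0.07 (SE), or 3.39-fold. The means were then 9.01 ± 0.04 in the MC-LR livers and 7.25 ± 0.09 in the controls (SD, n = 3 each).

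**Figure D5:**
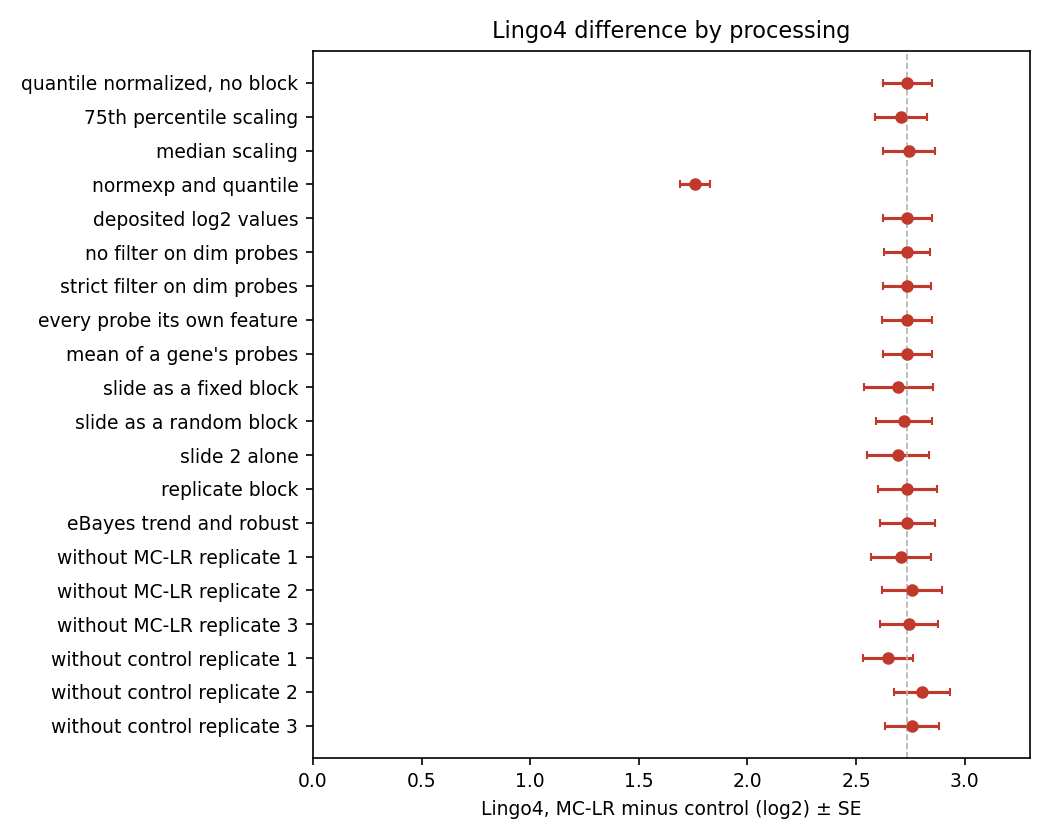
Lingo4 log2 difference between MC-LR and control livers (x axis, ± SE) under each way of processing the arrays, with a dashed line at 2.74. All estimates lie between 2.65 and 2.80 apart from normexp background correction with an offset of 50 at 1.76. Filter, probe summary, replicate block and eBayes settings cannot move this estimate, only its SE.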

How the data were processed

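Spot intensity was deposited as scanner output; the submitters' processing notes name Feature Extraction 10.7. Per the file headers, the processed intensity had its background removed by a spatial fit (no local subtraction) and was multiplicatively detrended, and surrogate values replace those of dim spots. The deposited series table is on a log2 scale, and its authors quantile normalized it in GeneSpring, per the series' design text. Each column has a median of 5.94 and correlates at r of at least 0.998 with its array's own log2 signal, so the scale is log2, uncentred by gene, and higher means more signal.

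Here the processed signal was floored at 1 and log2-transformed, outlier-flagged spots were left out, replicate spots were averaged, and arrays were quantile normalized. Of 28481 probes that passed the filter, the brightest represented each of 18897 genes. Names came from RefSeq accessions (27668 probes), symbols or synonyms (6060) or the files (7446). The comparison used limma 3.58.1 (R 4.3.3; eBayes, two-sided; residual df 4, prior df 2.05), and p-values were adjusted by Benjamini-Hochberg across all genes tested, with 0.05 as the threshold. Alternatives changed the scaling, background correction, filter, slide or replicate block and the arrays included. The fit was tested on simulated data. Per the series' design text, each liver came from a separate mouse.

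Members and lists were chosen with earlier results of these data known. Named genes are all family probes, all Lingo4 neighbours within 200 kb that have a symbol, up to 2 neighbours of each other family gene, the 3 members of a list with the smallest p plus the pathway's receptors and co-receptors, and the 8 genes with the highest and 3 with the lowest r with Lingo4. Other pathway members, Alb, Apoa1, Ttr, Cps1, Hnf4a, Tat, Crmp1, Kcnma1, Syt1, Mbp, Lrat, Stab2, Kdr, Clec4g, Cd5l, Olig2 and Il23r were named after their values were seen. The same holds for Clec4f, Vsig4, Adgre1 and Marco. Some neighbouring genes, counted in the totals, are not reported here.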

Additional observations from a re-analysis of the deposited data

How the results depend on the processing

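The count of all genes past the adjusted threshold (3 by limma) depended on the setting. It was 1 with 75th percentile scaling, with median scaling, with normexp and with the strict filter, 5 without a filter, and 15 with slide as a fixed block. It was 0 within slide 2 (2307 at an unadjusted p under 0.05) and 0 with the replicate number as a block (1834). With 1 array left out it ranged from 1, without MC-LR 1, to 50, without control 3, where slide and group coincide. The clock list gave 0 to 1 calls, the 1 being Ciart without control 3, and the 3 other lists and the neighbours gave 0 under every alternative run. The Lingo4 difference was 1.76 under normexp, whose offset of 50 lowers it by construction. Replicate numbers did not pair the mice (correlations of deviations 0.19, -0.32 and -0.20), and with the replicate block Lingo4 differed by 2.74 ± 0.13 (SE). Lingo2, without a value under the strict filter, differed by -0.78 to -0.06 in 18 alternatives. The cause of the other shifts was not tested. Signals near background limit Lingo1, Lingo2 and Lingo3.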
